A study of Mus musculus with 4 samples.

Results

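The response of miR-17-92 lymphoma cells to the loss of MYC is described here from 1 array with doxycycline (DOX, MYC off) and 1 array without it (MYC on). The cells were CL4188, a conditional mouse MYC lymphoma line of the FVB/N strain, infected with the retroviral vector MSCV carrying the microRNA cluster miR-17-92. In the DOX group they received DOX at 20 ng/ml for 48 hours, and in the no-DOX group no agent. The same line with the MSCV control vector, with and without DOX, makes up the other arrays of the series, 4 in all with 1 per group. Both groups described here carry the MYC transgene and the miR-17-92 vector, and both come from 1 cell line. The labels do not give the promoter that drives either, nor the species of the MYC gene. Genes were taken into the comparison where a probe with 1 gene name had a detection p-value of at most 0.01 on either array. That left 8328 genes of 19057 on the array and of 8674 detected anywhere in the series. Of them 7247 were detected on both arrays, 738 with DOX only and 343 without DOX only. Each group is 1 array, so the ratios carry no measure of spread between cultures and are given as descriptions without p-values.

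MYC is a transcription factor that pairs with MAX, binds the E-box sequence and raises the output of genes for ribosomes, nucleotides and other building material, and MXD proteins compete with it for MAX. In conditional lymphomas the withdrawal of MYC is known to stop proliferation and to start differentiation, senescence or death. The miR-17-92 cluster is a polycistronic microRNA transcribed by MYC among other factors. Its mature products pair through their seed, bases 2 to 8 from the 5' end, with transcripts of chromatin regulators, cell-cycle inhibitors and death genes and lower their output.

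The mature products of the mouse cluster lie on chromosome 14 within chr14:115043684-115044496, plus strand (RefSeq, GRCm38.p6), and are shown because the vector supplies them on both arrays. For each of the 6 hairpins the arm that is usually taken as the main product is printed, with its seed in capitals, and the opposite arms are left out. The arms printed fall into 4 seed groups.
mmu-miR-17-5p: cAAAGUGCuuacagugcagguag
mmu-miR-20a-5p: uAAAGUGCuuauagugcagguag
mmu-miR-18a-5p: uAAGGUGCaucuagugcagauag
mmu-miR-19a-3p: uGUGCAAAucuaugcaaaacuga
mmu-miR-19b-3p: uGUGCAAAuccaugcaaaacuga
mmu-miR-92a-3p: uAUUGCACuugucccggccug
The products miR-17-5p and miR-20a-5p share the seed AAAGUGC, and miR-19a-3p and miR-19b-3p share GUGCAAA. The bead arrays read messenger RNA and not mature microRNAs, so the level of these products was not measured.

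On the DOX array 14658 of 45281 probes were detected, against 13656 on the no-DOX array, and the median raw signals were 119.0 and 159.5. Both DOX arrays of the series came from 1 slide and both no-DOX arrays from the other, so slide and DOX cannot be told apart in any ratio below. Of 15 T-cell markers on the array 13 were detected with DOX and 11 without, and markers of the T lineage were thus present. Of 49 markers of other blood, stromal and endothelial cells 4 were detected with DOX and 2 without. Among these, Prf1 had a signal of 1959 with DOX and 1448 without, and Pecam1 1068 with DOX and 403 without. Vpreb1 and Itgam were detected with DOX only, near the detection floor (84.5 and 101 with DOX). No erythroid or megakaryocyte marker was detected on either array. In RNA from a whole culture, fewer cells of a kind and less RNA per cell cannot be told apart.

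Myc itself was lost from the DOX array. Its probe had a normalised signal of 39.5 with DOX, not above background, against 425 without DOX, which makes it at least 5.80-fold lower. Mir17hg, the host gene of the mouse miR-17-92 cluster, gave 153 with DOX and 1181 without, a log2 ratio of -2.95. Both probes read low with DOX and high without it. The labels do not say whether the Myc probe also reads the transgene, or whether the Mir17hg probe also reads the vector.

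Among partners and rivals of MYC the direction was mixed. Mxd4, a MAX partner that represses E-box genes, had 12032 with DOX and 3245 without (log2 ratio 1.89, with 1.94 for its next probe). Mxd3, of the same family, was detected with DOX only and was at least 3.76-fold higher. Txnip, a target of the glucose-sensing Mondo factors and a brake on glucose uptake, had 10340 with DOX and 491 without (4.40). Mlxip, which encodes the Mondo factor MondoA, went the other way, with 144 with DOX and 350 without (-1.28). Max (-0.54), Mxi1 (-0.15) and Mlx (0.40) stayed within 2-fold, although the next probe of Mlx stood at 1.20. Mxd1 and Mga were detected with DOX only, too close to the floor for a fold.

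Across all genes 1265 were at least 2-fold higher with DOX, 15.2% of those analysed, and 1105 were at least 2-fold lower, 13.3%. These include 373 higher genes detected with DOX only and 218 lower genes detected without DOX only, whose other signal was not above background. By the lower bound described below, 142 and 128 of them were at least 2-fold. Among the 7247 genes detected on both arrays the counts were 892 and 887, or 12.3% and 12.2%. These shares are the background against which the gene groups below are read. A gene can belong to more than 1 group, so the counts of the groups overlap in part. Over all analysed genes, those detected on 1 array only included, the counts at 4-fold were 273 higher and 290 lower, and at 16-fold 22 and 20. The median log2 ratio of all genes was 0.08, and 5% of genes lay below -1.75 and 5% above 1.73. Of all analysed genes past 2-fold 53.4% were higher. That split moved to 65.9% with median scaling, which put the median of all genes at 0.26, and to 41.3% with the authors' processed values, which put it at -0.05. Ratios are therefore relative to the other genes, and a change common to most genes would not be seen. For 3297 genes with several detected probes the spread per probe was 0.32 on the log2 scale. Of 871 such genes past 2-fold the next probe had the same direction in 95.9%, and was itself past 2-fold in that direction in 71.8%. In the plot of ratio against level, genes past 2-fold lie in both directions over the range of levels (Cd6 and Srm at the extremes), and the scatter narrows toward the brightest probes. Of 1302 genes with a mean log2 level over 12, 135 were higher and 120 lower. The SD of log2 ratios was 0.82 among genes with a mean log2 level over 12, against 1.27 between 7 and 8.

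**Figure D1:**
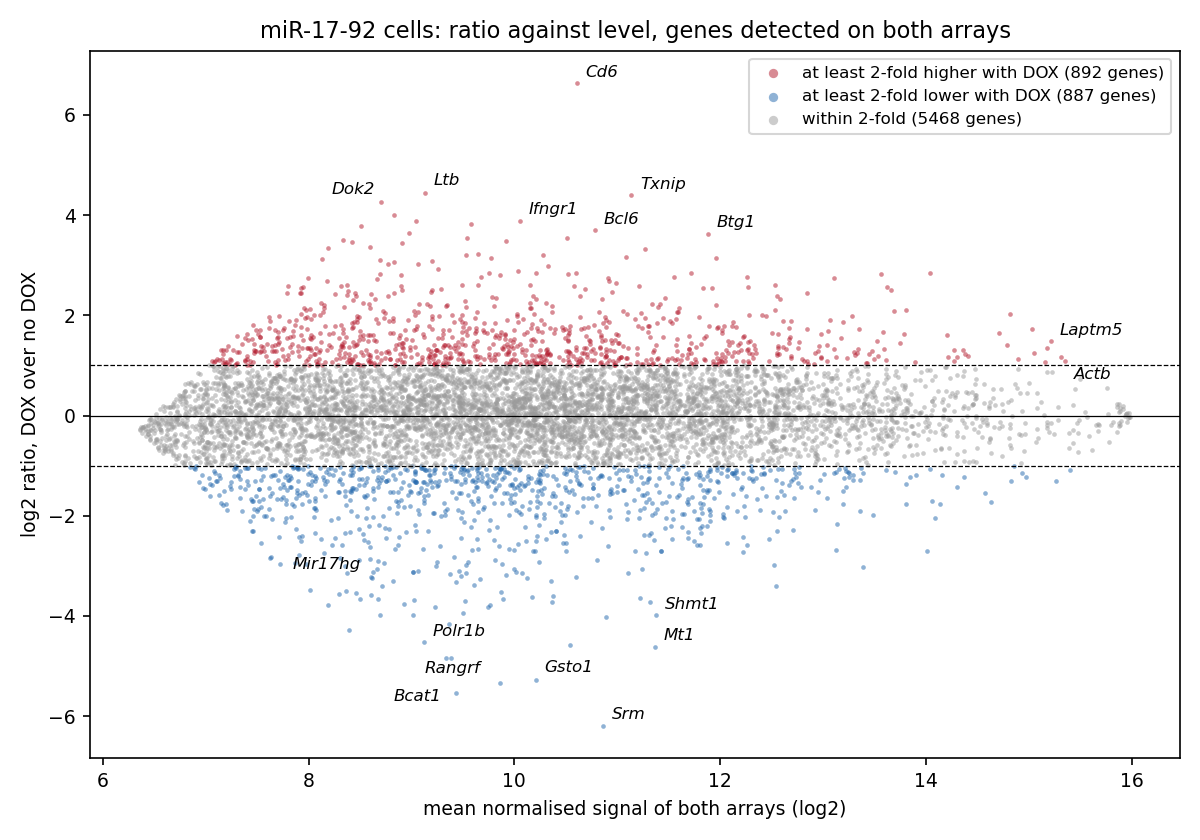
Each point is 1 of 7247 genes detected on both arrays of the miR-17-92 cells, with the mean normalised signal of both arrays (log2) on the x axis and the log2 ratio, DOX over no DOX, on the y axis. The 892 genes at least 2-fold higher (red) and the 887 at least 2-fold lower (blue) lie outside the dashed lines at 1 and -1, from Cd6 at 6.64 down to Srm at -6.19.

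With clone and predicted gene names passed over, the 16 lowest ratios ran from -6.19 to -3.94. Srm, spermidine synthase, had a signal of 218 with DOX and 15948 without, and its next probe stood at -5.47. Bcat1, the cytosolic branched-chain aminotransferase, had 101 with DOX and 4692 without (next probe -3.25). Rangrf, a RAN-binding factor of nuclear transport, had 146 with DOX and 5909 without. All 3 probes were dim with DOX and bright without it. Gsto1, a glutathione transferase, had 190 with DOX and 7383 without (-5.28), and Mt1, a metallothionein that binds zinc and copper, 534 with DOX and 13054 without (-4.61). Polr1b, the second largest subunit of RNA polymerase I, had 117 with DOX and 2671 without (-4.52). Pusl1, a pseudouridine synthase homologue, had 76.4 with DOX and 1476 without (-4.27), and Mettl1, the methyltransferase that makes 7-methylguanosine in transfer RNA, 104 with DOX and 1652 without (-3.99, next probe -4.19). Cluh, an RNA-binding protein for messages of mitochondrial proteins, had 130 with DOX and 2065 without (-3.99), and Shmt1, the cytosolic serine hydroxymethyltransferase, 668 with DOX and 10616 without (-3.99). The other members of the 16 lowest were Ydjc (-4.84), Fkbp11 (-4.83), Efhd1 (-4.59), St6galnac4 (-4.16), Fam185a (-4.02) and Meikin (-3.94).

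Chosen in the same way, the 16 highest ratios ran from 3.49 to 6.64. Cd6, a T-cell surface receptor, had 15569 with DOX and 156 without (6.64), and its next probe agreed at 6.50. Ltb, the lymphotoxin beta chain, had 2615 with DOX and 121 without (4.43), and Dok2, an adaptor that damps kinase signalling in T cells, 1826 with DOX and 95.8 without (4.25). Ifngr1, the ligand-binding chain of the interferon gamma receptor, had 4096 with DOX and 277 without (3.89). Each of these was bright with DOX and dim without it. Bcl6, a transcriptional repressor of lymphocytes, had 6356 with DOX and 488 without (3.70). Btg1, an antiproliferative gene, had 13324 with DOX and 1076 without (3.63, next probe 3.56). Ccng2, an unusual cyclin linked to cell-cycle arrest, had 2881 with DOX and 204 without (3.82), and Pik3ip1, an inhibitor of PI3 kinase, 1087 with DOX and 95.8 without (3.50). Cd82, a tetraspanin (3.78), Vldlr, a lipoprotein receptor (3.64), Tmsb4x, which sequesters actin (3.55), Dleu2 (3.88), Ptms (3.55) and Ppp1r18 (3.49) were in the same range. Them5 had 1822 with DOX and 114 without by its brightest probe, and its next probe stood at 1.58.

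**Figure D2:**
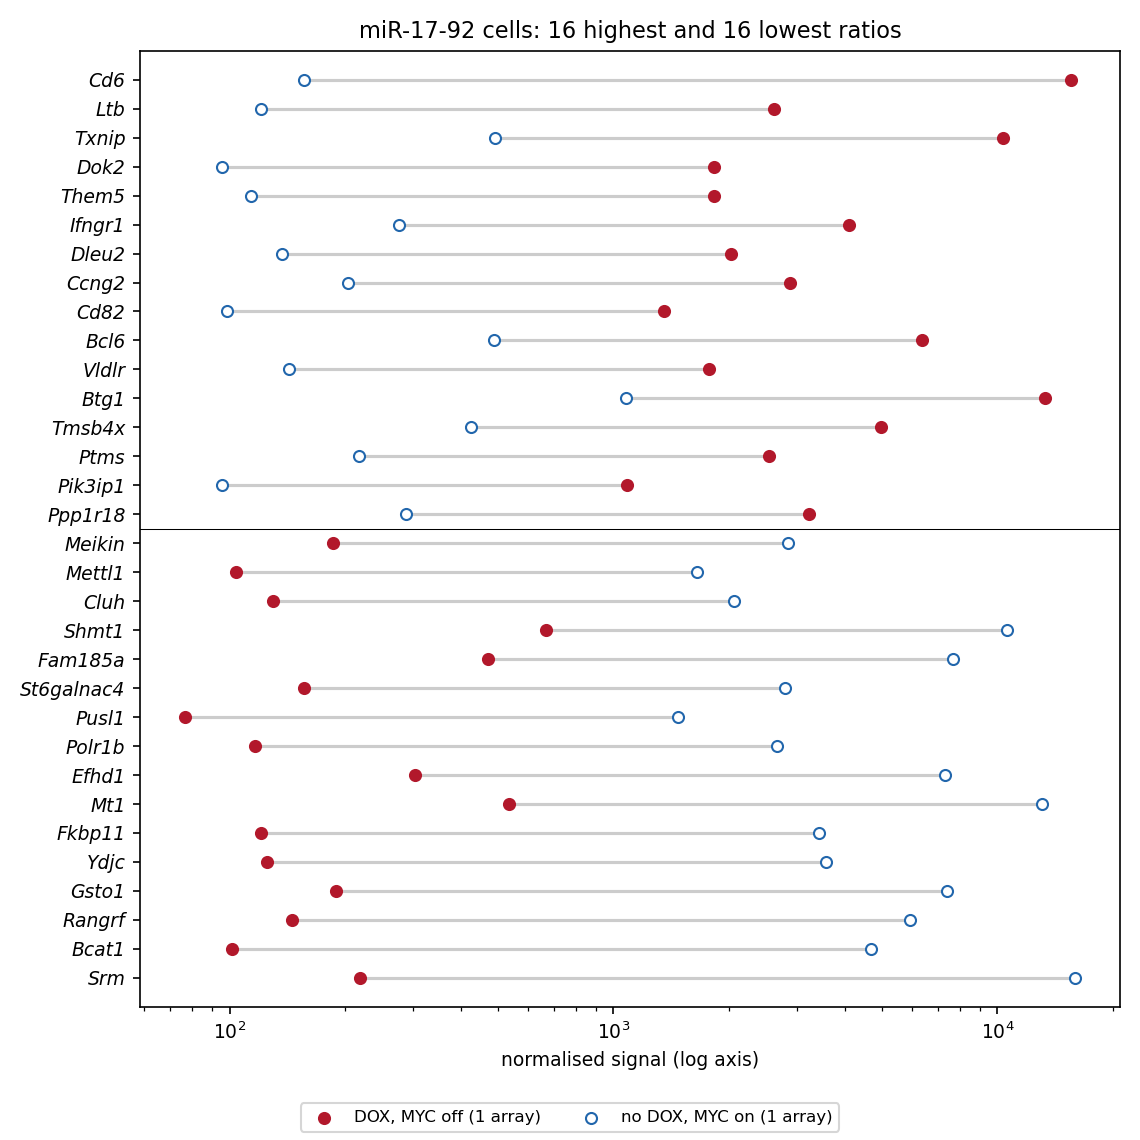
Normalised signal (log axis) of the 16 genes with the highest and the 16 with the lowest ratio among those detected on both arrays of the miR-17-92 cells, filled for the DOX array and open for the no-DOX array. Clone and predicted gene names were passed over. The upper genes reach 15569 (Cd6) with DOX and lie between 95.8 and 1076 without it, and the lower genes lie between 76.4 (Pusl1) and 668 (Shmt1) with DOX.

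The remaining genes were detected on 1 array only, and for them the ratio is a lower bound set by the detection floor. Entry this way needed detection on 1 array and none on the other, so the direction of these genes is no separate observation. Of the 738 genes detected with DOX only, 142 were at least 2-fold higher by the bound. The largest were Tctex1d1 (at least 58.5-fold, with a second probe at a log2 ratio of 2.18), Hsd11b1, which regenerates active glucocorticoid (at least 55.0-fold), Tespa1, a part of T-cell receptor signalling (at least 36.1-fold), Spon2 (at least 27.6-fold) and Cd52, a lymphocyte surface glycoprotein (at least 23.8-fold). Plxdc1 (14.1), Ncam1 (13.6), Abi3 (12.4), Fermt3, the integrin activator kindlin-3 (12.1), Wdr78 (11.8), Myo1f, a myosin of blood cells (11.5), and Sema7a (10.9) followed as lower bounds of the fold. The second probe of Ncam1, at 0.48, was within 2-fold. Of the 343 genes detected without DOX only, 128 were at least 2-fold lower by the bound. The largest were Car12, a membrane carbonic anhydrase (at least 39.6-fold), Mcrip2 (at least 28.6-fold), Pdia5, an endoplasmic reticulum disulphide isomerase (at least 13.5-fold), and Ak5, an adenylate kinase (at least 12.9-fold). Egfl7 (12.3), Pcsk4 (11.6), Rasd2 (9.77), Abhd14a (8.93), Gja1, the gap junction protein connexin 43 (8.29), Tspan4 (8.05), Adarb1, an RNA-editing deaminase (7.95), and Egfem1 (7.82) followed as lower bounds of the fold.

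The promoters of genes at both ends were searched for short motifs, since MYC binds the E-box CACGTG and FOXO factors, which act when growth signalling is low, bind TGTTTAC. Windows of 300 bases, from 250 before to 50 after the start (RefSeq, GRCm38.p6), were searched on both strands for the 5441 analysed genes with 1 window in the table. Shown are Mettl1 (chr10:127041682-127041981, plus strand) and Nop2 (chr6:125131633-125131932, plus strand) from the low end, with the E-box in capitals, and Txnip (chr3:96557707-96558006, plus strand) and Btg1 (chr10:96616751-96617050, plus strand) from the high end, with TGTTTAC or its reverse complement GTAAACA in capitals. They were chosen because they hold the motif.
Mettl1: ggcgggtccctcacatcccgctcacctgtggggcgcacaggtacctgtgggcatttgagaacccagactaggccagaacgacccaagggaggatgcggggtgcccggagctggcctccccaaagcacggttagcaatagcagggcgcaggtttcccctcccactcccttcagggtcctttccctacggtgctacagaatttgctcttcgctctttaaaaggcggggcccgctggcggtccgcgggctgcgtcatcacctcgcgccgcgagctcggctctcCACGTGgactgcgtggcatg
Nop2: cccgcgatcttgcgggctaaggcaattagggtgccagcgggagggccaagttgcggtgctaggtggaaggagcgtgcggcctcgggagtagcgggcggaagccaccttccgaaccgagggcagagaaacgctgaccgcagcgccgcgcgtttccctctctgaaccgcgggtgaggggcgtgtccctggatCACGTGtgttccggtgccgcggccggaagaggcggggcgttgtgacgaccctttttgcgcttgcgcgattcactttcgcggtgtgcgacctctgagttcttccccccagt
Txnip: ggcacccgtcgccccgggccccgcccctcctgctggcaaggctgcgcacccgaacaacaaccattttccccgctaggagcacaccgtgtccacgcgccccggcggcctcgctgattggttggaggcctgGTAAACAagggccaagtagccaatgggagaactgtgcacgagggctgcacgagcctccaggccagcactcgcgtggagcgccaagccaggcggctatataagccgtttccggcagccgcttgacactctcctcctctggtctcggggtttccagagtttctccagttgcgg
Btg1: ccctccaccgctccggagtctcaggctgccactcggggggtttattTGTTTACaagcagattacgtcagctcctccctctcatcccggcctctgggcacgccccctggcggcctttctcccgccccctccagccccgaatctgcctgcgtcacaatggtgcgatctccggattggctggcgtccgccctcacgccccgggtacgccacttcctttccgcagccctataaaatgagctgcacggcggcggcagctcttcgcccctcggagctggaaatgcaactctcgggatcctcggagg
The E-box starts at base 31 after the start in Mettl1 and at -60 in Nop2, and the FOXO motif at -121 in Txnip and -204 in Btg1. A match is a description of these letters and not a bound site.

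The E-box was in 24.2% of the 62 windows of genes with a log2 ratio of -3 or below and in 26.7% of 131 between -3 and -2. It was in 13.7% of 540 between -2 and -1, in 10.9% of 2339 between -0.5 and 0.5 and in 7.43% of 592 between 1 and 2. Among the 41 at 3 and above it was in 7.32%. All analysed genes had it in 10.8% of windows and the whole promoter table of 22862 windows in 7.12%. Base composition differed little between the low and middle bins, with a mean GC content of 61.3% at -3 and below, 60.5% between -3 and -2 and 61.1% between -0.5 and 0.5. Other named genes of the low end with the E-box in the window were Pusl1, Cluh, Slc25a33, Ipo4, Wdr43, Apex1, Polr3e, Wdr77, Timm8a1, Atic, Timm10 and Timm9. The FOXO motif was in 12.2% of the 41 windows at 3 and above, 5 genes, against 2.54% of 118 between 2 and 3 and 2.59% of all analysed genes. With the first window of every gene, 56 genes stood at 3 and above, with the FOXO motif in 8.93% and the E-box in 10.7%. That E-box share is near the 10.9% of all analysed genes in that setting. Those at 3 and above had a mean GC content of 58.0% and 13.8 CpG sites a window, against 22.7 sites over all analysed genes. The E2F motifs TTTGGCGC and TTTCGCGC were in 1.93% of analysed windows and showed no such gradient, with 1.61% at -3 and below.

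**Figure D3:**
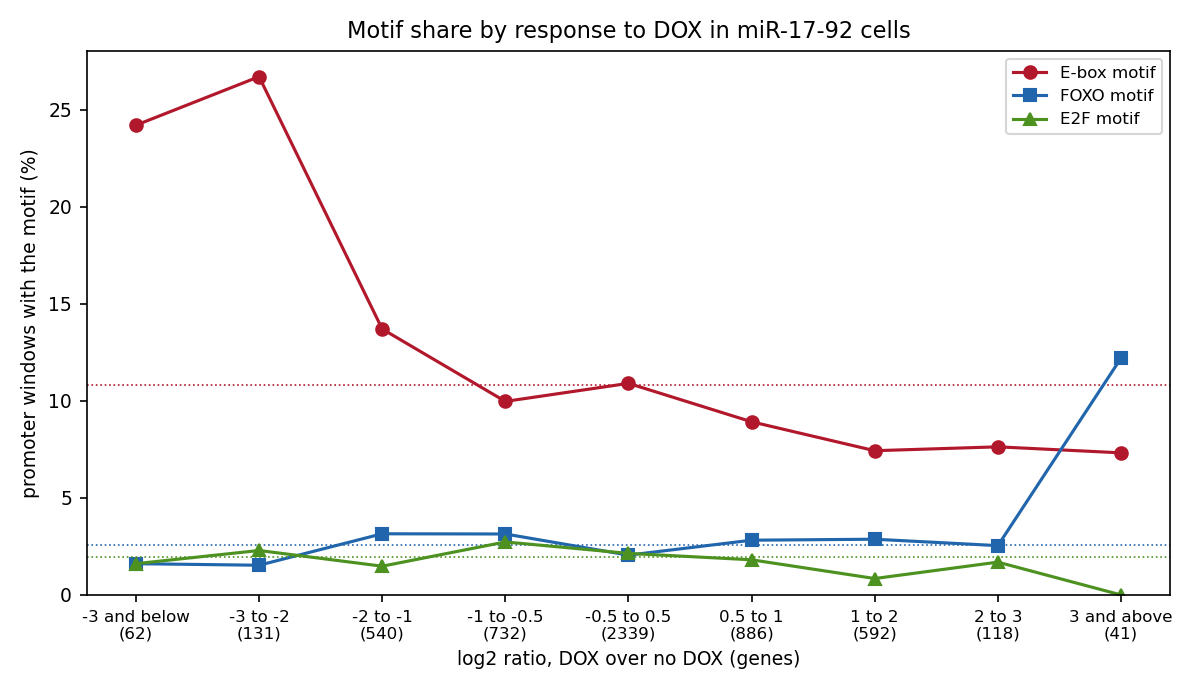
Share of promoter windows (%) that hold the E-box, the FOXO motif or an E2F motif, by bin of log2 ratio, DOX over no DOX, with the number of genes in brackets and the share in all analysed genes as dotted lines. The E-box share is 24.2% and 26.7% in the lowest bins and between 7.32% and 7.63% in the highest, and the FOXO share is 12.2% in the highest bin, which holds 41 genes.

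Genes for making ribosomes were lower with DOX almost throughout. Of 54 rRNA processing and ribosome assembly genes detected on both arrays 46 were at least 2-fold lower and none higher, with a median log2 ratio of -1.90, against 12.2% lower in the background. Rrp1b had 363 with DOX and 4821 without (-3.73) and Rrp12, which takes part in the export of both ribosomal subunits, 703 with DOX and 9243 without (-3.72). Rcl1, a factor for cutting the precursor of the small subunit RNA, had 673 with DOX and 8429 without (-3.65). All 3 were still detected with DOX and bright without it. Nop2, the methyltransferase of the large subunit RNA, had 248 with DOX and 2203 without (-3.15), Wdr43 stood at -3.23 and Gnl3, the nucleolar GTPase nucleostemin, at -3.10. The polymerase that reads the rRNA genes behaved alike in its large subunits. Beside Polr1b, Polr1a, the largest subunit of RNA polymerase I, had 834 with DOX and 6998 without (-3.07). Polr1e (-1.62) and Polr1c (-1.29) were also 2-fold lower, and the other 5 polymerase I genes detected on both arrays were between -0.82 and -0.09. In RNA polymerase III and its factors 5 of 17 were 2-fold lower, led by Polr3e at -2.97, Polr3b at -1.60, Polr3g at -1.55 and Gtf3a, the factor that binds the 5S rRNA gene, at -1.34. The next probe of Polr3e stood at -1.52.

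The ribosomal proteins themselves moved little by these probes. Of 52 cytosolic ribosomal protein genes detected on both arrays 10 were 2-fold lower, none was higher and 47 lay below 0 (median -0.40). The lowest were Rplp0, a protein of the ribosomal stalk, with 690 with DOX and 3658 without (-2.41), Rps15a (-2.04), Rpl4 with 2111 with DOX and 8283 without (-1.97), and Rpl21 (-1.88). The brightness of the probes moved with this result. Of 26 genes with signals over 30000 on both arrays none was past 2-fold, with ratios between -0.73 and 0.08, while all 10 calls were among the other 26. The part of the upper end of the signal range in this was not tested. Ribosomal protein genes also have many near-identical copies, so a probe can read more than its own gene. With the authors' processed values the median of the list was -0.87, the lowest of all settings.

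Translation and protein folding genes were lower in part. Of 19 cytosolic aminoacyl-tRNA synthetase and scaffold genes 10 were 2-fold lower (median -1.06). Vars, which charges valine tRNA, had 542 with DOX and 2977 without (-2.46), Eprs stood at -1.83 and Aimp2, a scaffold of the synthetase complex, at -1.73. Tars, for threonine, was the highest at 0.24. Of 13 mitochondrial synthetases 6 were 2-fold lower (median -0.78), led by Mars2 at -1.97, Ears2 at -1.72 and Lars2 at -1.56. Of 73 mitochondrial ribosomal protein genes 19 were 2-fold lower and none higher (median -0.64), with Mrps18b at 1469 with DOX and 6838 without (-2.22) and Mrps27 at -2.02. Among 42 translation factors 13 were 2-fold lower and 1 higher (median -0.60). Eif1a, which scans for the start codon, had 1454 with DOX and 8754 without (-2.59), Eif2b3, a subunit of the exchange factor of eIF2, 601 with DOX and 3492 without (-2.54), and Eif4ebp1, a repressor of cap-dependent translation, 1643 with DOX and 7776 without (-2.24). The factor that went up was Pdcd4, an inhibitor of the helicase eIF4A, at 1.42.

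Chaperones for new and mitochondrial proteins followed. Of 31 chaperonin and heat shock genes 15 were 2-fold lower and 2 higher (median -0.92). The mitochondrial pair Hspd1 (HSP60) and Hspe1 (HSP10) fell together, Hspd1 with 6434 with DOX and 42150 without (-2.71) and Hspe1 with 1852 with DOX and 12292 without (-2.73). Among the 7 CCT chaperonin subunits other than Tcp1, Cct6a (-1.76), Cct3 (-1.76) and Cct2 (-1.36) were 2-fold lower and Cct8 (-0.92), Cct5 (-0.67), Cct7 (-0.57) and Cct4 (-0.39) within 2-fold. Tcp1 stood at -0.75. The cochaperones Bag2 (-3.13) and Bag3 (-1.83) were lower, and Dnajb1 (1.16) and Pfdn5 (1.09) were higher. Of 47 nuclear pore and transport genes 16 were 2-fold lower (median -0.67). Besides Rangrf these included Ipo4, an importin, with 115 with DOX and 1447 without (-3.65), Nup37 (-2.62) and Xpo4 (-2.36).

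Splicing and proteasome genes moved less. Of 53 splicing genes 4 were 2-fold lower and none higher (median -0.16), namely Wdr77 (-2.49), Prmt1 (-1.36), Prmt5 (-1.26) and Sf3b3 (-1.13). Wdr77, Prmt5 and Prmt1 serve arginine methylation, which splicing proteins need for assembly. Of 36 proteasome genes 4 were 2-fold lower and none higher (median -0.17), namely Psmg3 and Psmg2, assembly chaperones, at -1.34 and -1.16, Psmd7 at -1.28 and Psme3 at -1.14. Both shares are below the 12.2% of the background. Of 16 immunoproteasome and peptide loading genes 2 were higher and none lower (median 0.49), a share near the 12.3% of the background. Tap2, a subunit of the peptide transporter, had 8443 with DOX and 2476 without (1.77), and Psmb9, an immunoproteasome subunit, 3257 with DOX and 1011 without (1.69). Psmb8 (0.93) and H2-D1, a class I heavy chain (0.90), were within 2-fold.

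Enzymes that supply building blocks were among the lowest groups. Of 14 serine, glycine and folate genes detected on both arrays 11 were 2-fold lower and none higher (median -2.44). Slc19a1, the folate carrier of the plasma membrane, had 227 with DOX and 3235 without (-3.83), and Mthfd1, the cytosolic trifunctional folate enzyme, 363 with DOX and 3419 without (-3.24). Both stood next to Shmt1 at the low end of the list. The mitochondrial enzymes Shmt2 (-2.61) and Mthfd2 (-1.14) and the serine synthesis enzymes Phgdh, with 782 with DOX and 4729 without (-2.60), and Psat1 (-1.14) were lower as well. Mtap, which salvages methionine from the polyamine pathway, stood at -3.11, and Tyms, thymidylate synthase, at 0.35. Gldc of the glycine cleavage system was detected with DOX only and at least 6.34-fold higher.

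Of 11 purine synthesis genes 8 were 2-fold lower and all 11 lay below 0 (median -1.26). Atic, which closes the purine ring, had 1412 with DOX and 7724 without (-2.45), and Gart, which carries 3 earlier steps, 1591 with DOX and 8136 without (-2.35). Ppat, the committed step, stood at -1.96. The pyrimidine and deoxynucleotide list was mixed. Cad, which starts pyrimidine synthesis, had 113 with DOX and 1348 without (-3.58), Dhodh stood at -2.33, Umps at -1.66 and Ctps at -1.52. Of the nucleotide kinases, Nme2 had 8567 with DOX and 35605 without (-2.06), and Nme1 (-1.14) and Uck2 (-1.19) were also lower. Dck, the salvage kinase for deoxycytidine, had 2454 with DOX and 842 without (1.54), and Tk2, the mitochondrial thymidine kinase, stood at 1.16. Over the 18 genes of the list detected on both arrays 7 were lower and 2 higher (median -0.10). In the polyamine pathway Odc1, the committed enzyme, had 5779 with DOX and 22832 without (-1.98) beside Srm, and Eif5a, the translation factor that carries the polyamine-derived hypusine, 14200 with DOX and 41683 without (-1.55). Of 11 amino acid transporters 4 were lower and 1 higher. Slc1a5, a glutamine carrier, stood at -1.88 and Slc7a6 at -1.61, while Slc7a11, the cystine carrier, had 2072 with DOX and 526 without (1.98).

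Glucose breakdown ran against this pattern. Of 15 glucose uptake and glycolysis genes detected on both arrays 7 were at least 2-fold higher and none lower (median 0.94), against 12.3% higher in the background. They were Hk1, hexokinase, with 516 with DOX and 166 without (1.63), Slc2a1, the glucose transporter GLUT1, with 3417 with DOX and 1247 without (1.45), Pkm, pyruvate kinase, with 31312 with DOX and 12590 without (1.31), and Pfkl (1.24), Pgk1 (1.18), Aldoa (1.18) and Tpi1 (1.12). Each of these signals was higher on the DOX array. The second probe of Pfkl, at 0.23, was within 2-fold, while that of Pgk1 stood at 1.62. Gapdh (0.94), Pfkp (0.73), Ldha (0.26) and Pgm1 (0.22) lay within 2-fold, and Pgam1 (-0.28) and Slc2a3 (-0.41) were the lowest. Over the 16 analysed genes the median was 1.03, the highest of the settings tried, with 0.49 by the authors' processed values as the lowest, and in the control cells the same genes had a median of -0.36. The difference between the lines was not tested. Genes of the hypoxia response stood beside them, with 9 of 20 higher and 1 lower (median 0.73). Ddit4, an inhibitor of mTOR, had 7791 with DOX and 780 without (3.32), Ankrd37 stood at 1.99, Kdm3a, a histone demethylase, at 1.59, Vegfa at 1.13 and P4ha1, a prolyl hydroxylase for collagen, at 1.09. Ak4, a mitochondrial adenylate kinase, was lower at -1.81, and Car12, given above, is in the same list. The hypoxia motifs AACGTG and GACGTG, both strands, were in 4 of 10 glycolysis windows and 7 of 14 hypoxia-response windows, against 15.2% of all analysed windows. They share their last letters with the E-box, but no stretch can match both. By bin of log2 ratio these motifs were in 19.4% of windows at -3 and below, 16.6% between -0.5 and 0.5 and 4.88% at 3 and above. The hypoxia list was made of textbook genes of that response, so its motif share tells nothing about the response to DOX. Slc2a1 counts in both the glycolysis and the hypoxia list.

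**Figure D4:**
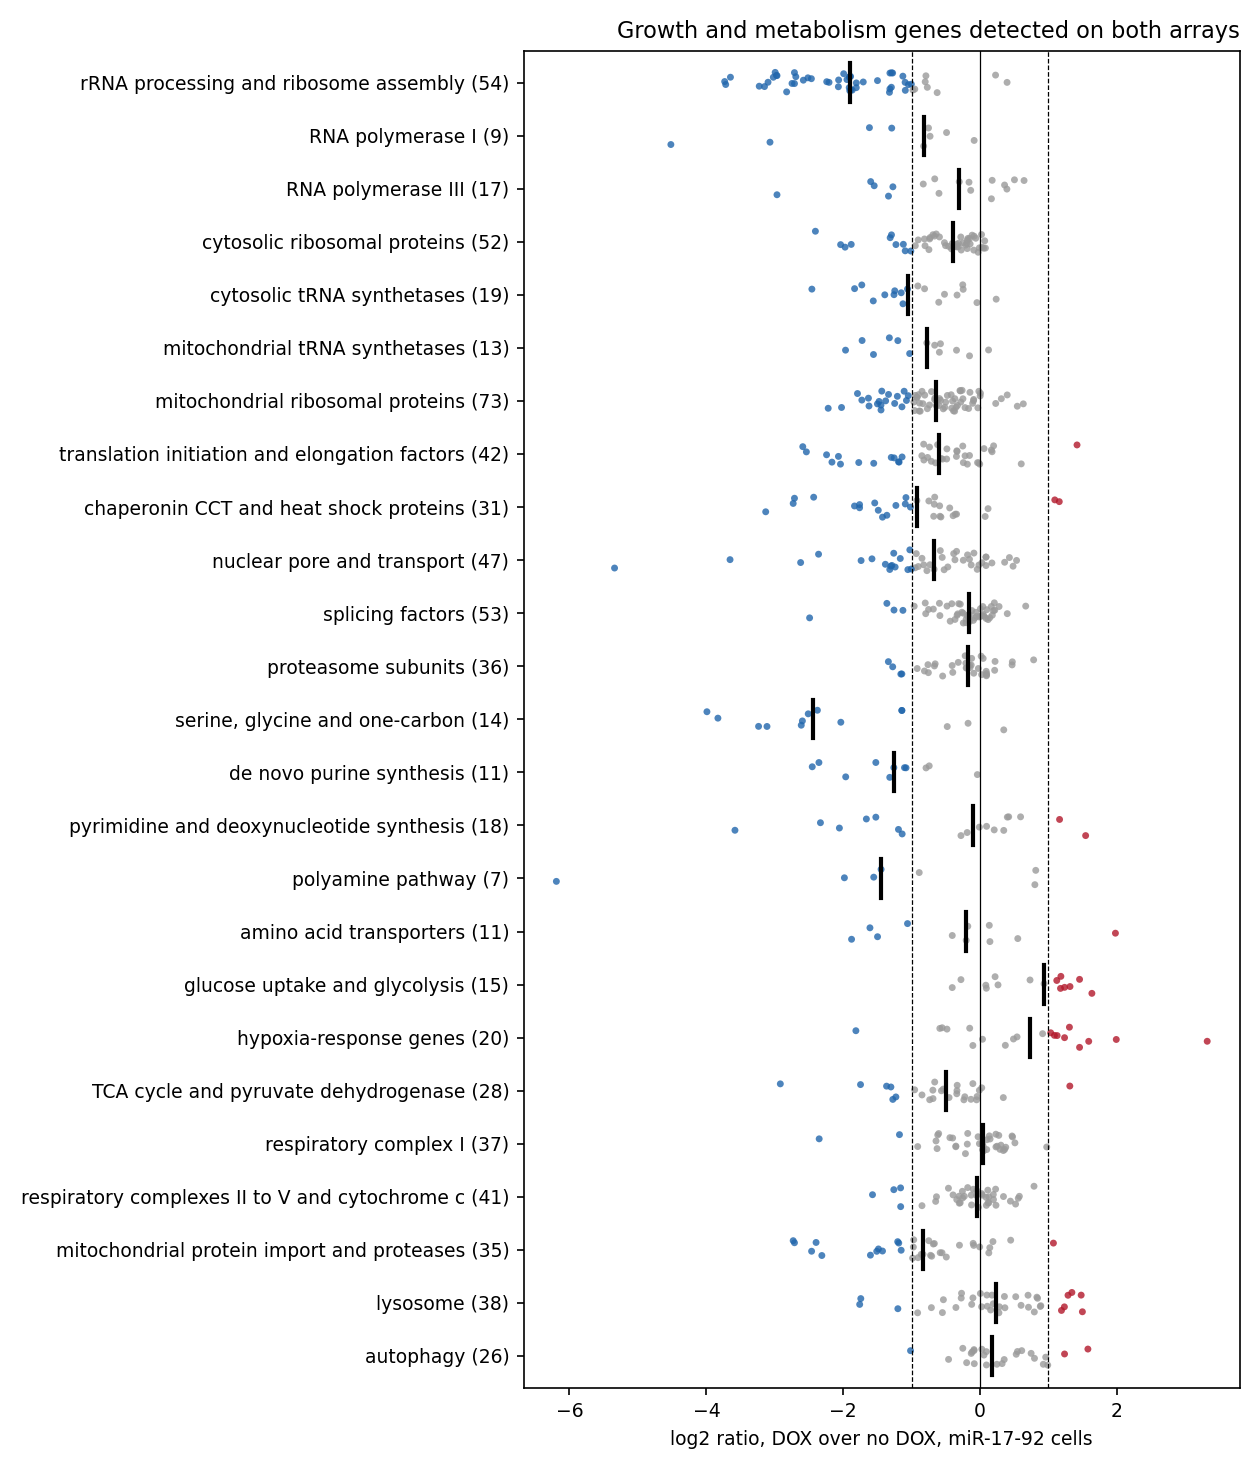
Log2 ratio, DOX over no DOX, of genes detected on both arrays of the miR-17-92 cells in 25 lists of growth and metabolism genes, with the number of genes in brackets, red or blue past 2-fold (dashed lines at 1 and -1) and a bar at the list median. The medians run from -2.44 (serine, glycine and folate genes) and -1.90 (rRNA processing) to 0.94 (glycolysis), and most splicing, proteasome and respiratory chain genes lie within 2-fold.

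Among mitochondrial genes, of 35 protein import and protease genes 12 were 2-fold lower and 1 higher (median -0.83). The small chaperones of the intermembrane space Timm8a1, with 2419 with DOX and 13324 without (-2.46), Timm10 (-2.40) and Timm9 (-2.31) stood together, and Tomm40, the outer membrane channel, stood at -1.60. Of 37 genes of respiratory complex I 2 were lower and none higher, Ndufaf4, an assembly factor, at -2.35 and Ndufa5 at -1.18 (median 0.05). Of 41 genes of complexes II to V and cytochrome c 4 were lower and none higher (median -0.05), led by Sco1 (-1.57) and Cox15 (-1.26), assembly factors of cytochrome oxidase. The sign of the complex I median was not stable, with -0.24 under the setting that gave the lowest value. Of 28 genes of the citrate cycle and pyruvate dehydrogenase 6 were lower and 1 higher (median -0.50). Suclg2, the GTP-forming succinyl-CoA ligase subunit, had 440 with DOX and 3324 without (-2.92) and Idh3a 486 with DOX and 1632 without (-1.75), while the cytosolic Idh1 was higher at 1.31. In the pentose phosphate pathway 1 of 6 was past 2-fold, Rpe, ribulose phosphate epimerase, with 895 with DOX and 178 without (2.33).

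Lipid genes had no common direction. Of 20 cholesterol genes 3 were higher and 2 lower, shares near the background of 12.3% higher and 12.2% lower. Their median was 0.04, between -0.09 and 0.28 over the settings tried. Mvk stood at 1.08, Srebf1, a regulator of lipid synthesis, at 1.03, Insig1 at 1.03 and Lss, lanosterol synthase, at -1.04. Among fatty acid synthesis genes Elovl6, an elongase, had 134 with DOX and 1174 without (-3.13), and its next probe stood at -1.36. Acss2, which makes cytosolic acetyl-CoA from acetate, stood at 1.42 and Fads1 at 1.09. Of 21 fatty acid oxidation genes Eci2 (1.25) was higher and Hadh (-1.36) lower, and Eci3 was detected with DOX only and at least 9.42-fold higher. Redox enzymes were lower in 9 of 28 cases and higher in 1 (median -0.39). After Gsto1 came Prdx3, the mitochondrial peroxiredoxin, with 567 with DOX and 2584 without (-2.19), Gstm1 (-2.04), Txnrd2 (-1.94, next probe -0.71) and Gclm, a subunit of the enzyme that starts glutathione synthesis (-1.54). Of 23 metal handling genes 4 were lower, Mt1, Aco1 (-1.30), Tfrc, the transferrin receptor, with 6383 with DOX and 14959 without (-1.23), and Slc30a1, a zinc exporter (-1.19).

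Genes of the ATF4 stress response were divided. Of 20 detected on both arrays 7 were higher and 5 lower (median -0.03). Vldlr and Ddit4 were higher, as were Ddit3, the stress factor CHOP, with 871 with DOX and 205 without (2.09), and Slc7a11, while Shmt2 and Phgdh were lower. The ATF4 motif TGATGCAA, both strands, was in 30.8% of 13 cytosolic tRNA synthetase windows, against 0.625% of analysed windows. In the endoplasmic reticulum 6 of 29 genes were higher and 2 lower (median 0.14, which was below 0 under other settings, to -0.11). Xbp1, a transcription factor of the unfolded-protein response, had 9152 with DOX and 3948 without (1.21), Edem1 stood at 1.23 and Syvn1, a ubiquitin ligase for misfolded proteins, at 1.15. Fkbp11 and Pdia5, folding enzymes of the secretory pathway described above, were lower, as was Sdf2l1 (-1.04).

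Lysosome and autophagy genes moved singly. Of 38 lysosomal genes detected on both arrays 6 were higher and 3 lower (median 0.23), a share of higher genes near the 12.3% of the background. Laptm5, a lysosomal protein of blood cells, had 63411 with DOX and 22767 without (1.48), Smpd1, acid sphingomyelinase, 1974 with DOX and 700 without, and Psap, prosaposin, 11028 with DOX and 4350 without (1.34). Lamp2, a membrane protein of the lysosome, was lower, with 7786 with DOX and 26349 without (-1.76, next probe -1.76), and so was Gusb, beta-glucuronidase (-1.74). Another 9 lysosomal genes were detected with DOX only, among them Lipa, acid lipase (at least 4.21-fold), and Ctsl, cathepsin L (at least 2.98-fold). The E-box was in 35.3% of 34 lysosomal windows, against 10.8% of all analysed windows, although this list was not lower as a group. In the serine, glycine and folate list, the lowest by median, it was in 8.33% of 12 windows. Of 26 autophagy genes 2 were higher, a share below the background, namely Atg12, with 11311 with DOX and 3794 without (1.58), and Bnip3l, a receptor for the removal of mitochondria (1.23). Atg4d was lower at -1.02 by its brightest probe and stood at 0.34 by the next.

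DNA replication genes were close to the no-DOX level in these cells. Of 12 MCM and GINS genes of the replicative helicase 11 were within 2-fold and 1 was higher, with a median of -0.04 whose sign differed between settings. Mcm2 had 4263 with DOX and 6231 without (-0.55), Mcm5 25258 with DOX and 18242 without (0.47), and Gins3 837 with DOX and 399 without (1.07). All 16 origin licensing and firing genes detected on both arrays were within 2-fold, from Orc1 at -0.92 to Cdc7, the kinase that fires origins, at 0.50. Of 38 polymerase and fork genes 3 were higher and 2 lower, both shares below the background. Their median was 0.15, between -0.01 and 0.18 over the settings tried. The exceptions were Pold4 (1.62), Asf1b, a histone chaperone (1.18), and Top2a, topoisomerase II (1.16), above, and Pold2 (-1.14) and Rnaseh2a (-1.02), below. In the control cells the medians of these 3 lists were -1.50, -1.06 and -1.25. No test of the difference was possible with 1 array a group. In the licensing windows an E2F motif was present in 27.3% of 11, against 1.93% of all analysed windows.

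DNA repair genes changed in a few members. Of 53, 6 were lower and 3 higher (median -0.16). Neither share was above the background of 12.2% lower and 12.3% higher. Apex1, the endonuclease for abasic sites, had 351 with DOX and 3040 without (-3.11), Ung, uracil DNA glycosylase, 1980 with DOX and 7423 without (-1.91), and Lig3 783 with DOX and 2743 without (-1.81). These 3 act in base excision repair and were named for the size of their ratios. H2ax, the histone marked at DNA breaks, had 9067 with DOX and 1257 without (2.85), and Lig4, the ligase of end joining, 1391 with DOX and 388 without (1.84).

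Mitosis genes stood slightly above the no-DOX level. Of 63 genes of mitotic kinases, kinetochore and spindle detected on both arrays 7 were 2-fold higher and none lower, and 54 lay above 0 (median 0.51). Nusap1, which bundles spindle microtubules, had 24781 with DOX and 8037 without (1.62), Kif23, a kinesin of cell division, 12354 with DOX and 5055 without (1.29), and Cenpf 589 with DOX and 177 without (1.73, next probe 0.46). The kinases Plk1 (0.04), Aurka (0.15), Aurkb (0.24) and Cdk1 (0.22) were near 0. The share past 2-fold is below the 12.3% of the background, and it is the number above 0 that sets the median. Of 23 condensin and cohesin genes 5 were higher and none lower (median 0.65). Ncapg (1.14), Smc2 (1.13) and Ncaph (1.09) belong to condensin, which compacts chromosomes, and Nipbl (1.25), which loads cohesin, stood above them. In the control cells the medians were -0.34 for the mitosis list and -0.02 for condensin and cohesin.

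Some histone genes were much higher. Of 49 detected on both arrays 12 were higher and 1 lower (median 0.16). The highest were H2bc4, with 2460 with DOX and 263 without (3.23), H2ac18, with 1245 with DOX and 154 without (3.01, next probe 0.31), H2ax, H1f2, with 4961 with DOX and 742 without (2.74, next probe 2.70), and H2az2, with 13750 with DOX and 2728 without (2.33). The single gene past 2-fold below was H3c3, at -1.31. In the control cells the median of the same 49 genes was -1.43, and the difference was not tested. Many histone genes, though not all, are near-identical copies of others of their class, so a probe for such a gene may read several of them.

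Cell-cycle entry genes moved in both directions. Of 25 G1 cyclin, CDK and E2F genes 4 were higher and 2 lower (median -0.40). The higher share was near the background and the lower share below it. Ccnd2, cyclin D2, had 97.5 with DOX and 1111 without (-3.51, next probe -3.80), and Ccnd3, cyclin D3, 60862 with DOX and 18343 without (1.73, next probe 3.11). Ccnd1 and Cdk6 were detected without DOX only and were at least 3.59-fold and 4.16-fold lower. E2f2 had 19756 with DOX and 5007 without (1.98, next probe 1.90). Among CDK inhibitors and pocket proteins 3 of 9 were higher and none lower (median 0.59). Cdkn2d had 2311 with DOX and 322 without (2.84), Cdkn2c 3578 with DOX and 1178 without (1.60), and Rb1, the retinoblastoma protein, 5550 with DOX and 2028 without (1.45). Cdkn1b, p27, was detected with DOX only and at least 3.74-fold higher. Cdkn2a stood at -0.62 and Cdkn1a at 0.59, with the next probe of Cdkn1a at -0.85. Of 16 BTG, TOB and other antiproliferative genes 8 were higher and none lower, and all 16 lay above 0 (median 1.28). Besides Btg1 and Pik3ip1 they included Ypel5, with 3618 with DOX and 459 without (2.98), Hbp1, with 2816 with DOX and 460 without (2.61), and Zfp36, which destabilises messages with AU-rich elements (1.85). Ypel3 stood at 1.93 by its brightest probe and at -0.65 by the next.

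**Figure D5:**
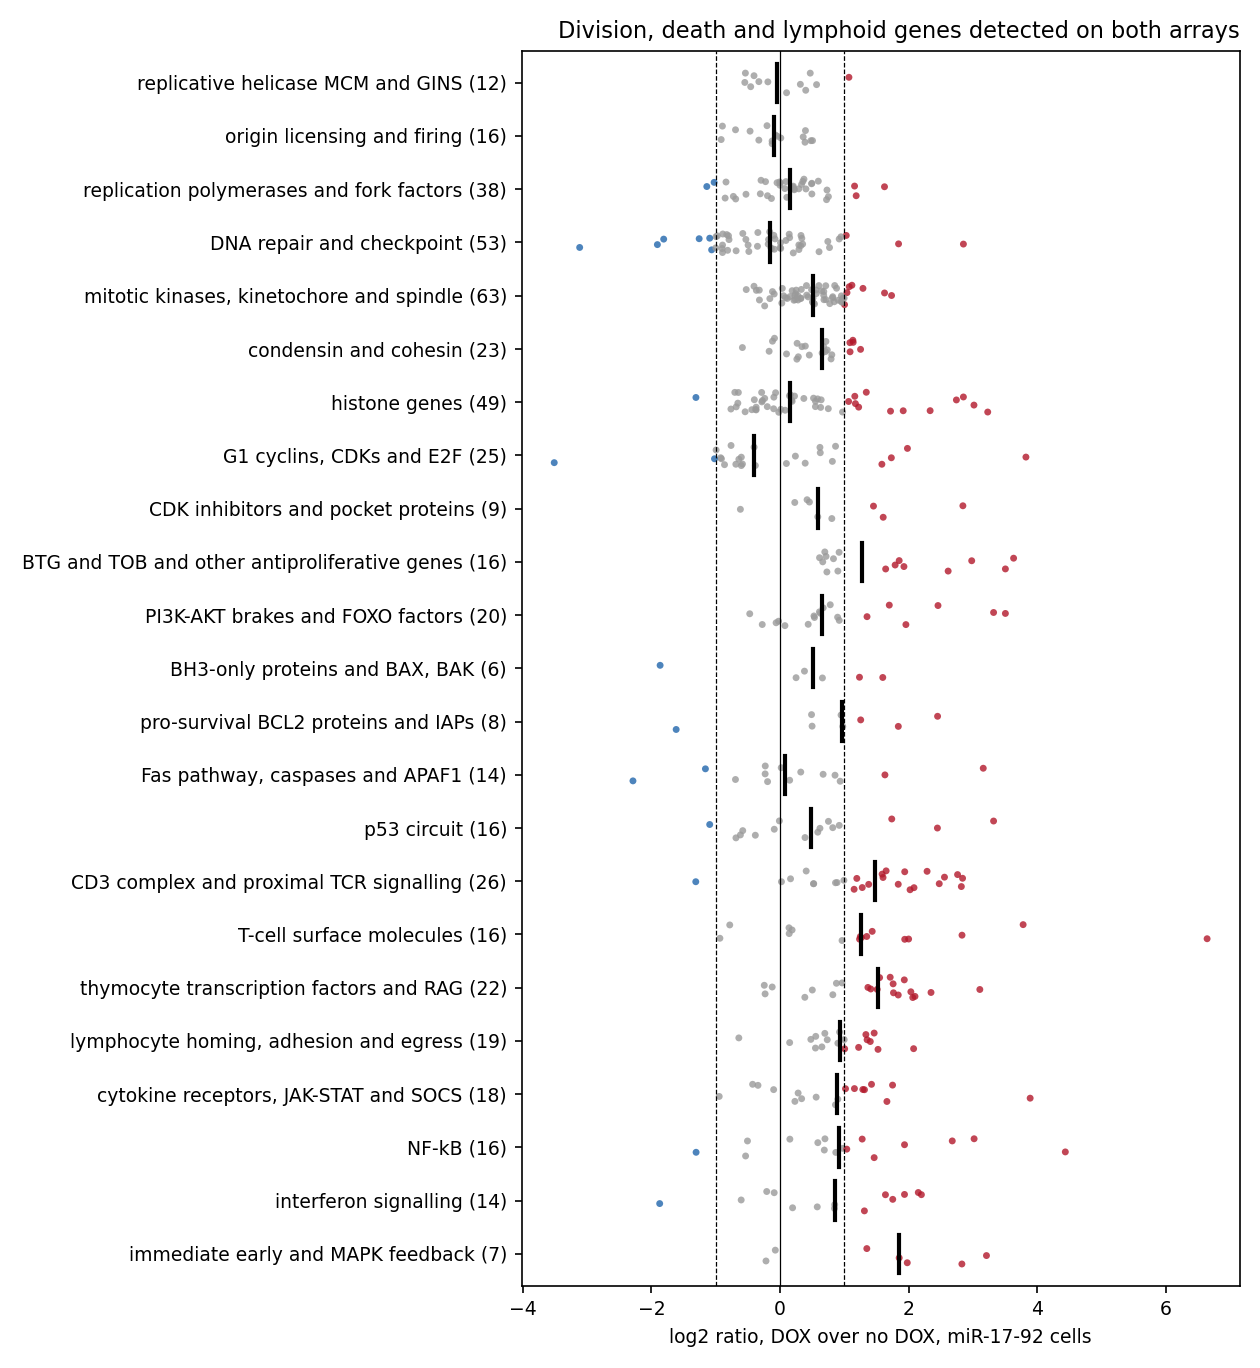
Log2 ratio, DOX over no DOX, of genes detected on both arrays of the miR-17-92 cells in 23 lists of division, death and lymphoid genes, with the number of genes in brackets, red or blue past 2-fold (dashed lines at 1 and -1) and a bar at the list median. Replication lists are centred near 0 (-0.04, -0.10 and 0.15), the mitosis list at 0.51, and the lists of T-cell receptor signalling (1.48) and thymocyte factors (1.53) lie mostly above 1.

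Death genes changed singly. Among BH3-only proteins and their effectors Bik had 673 with DOX and 223 without (1.60), Bid, which links caspase 8 to mitochondria, 594 with DOX and 2162 without (-1.86), and Bcl2l11, the gene of BIM, 444 with DOX and 341 without (0.38). Bbc3, the gene of PUMA, had 788 with DOX and 663 without (0.25), but its second probe stood at -1.46. Of 8 pro-survival genes 3 were higher and 1 lower. Cflar, an inhibitor of caspase 8, had 1062 with DOX and 195 without (2.45), Bcl2l1, the gene of BCL-XL, 3514 with DOX and 983 without (1.84), and Mcl1 7700 with DOX and 3229 without (1.25). Pim3, a survival kinase, was lower, with 3180 with DOX and 9739 without (-1.61). In the Fas pathway, Fas had 6512 with DOX and 729 without (3.16, next probe 2.69) and Casp6 1117 with DOX and 361 without (1.63), while Htra2, which blocks IAP proteins once released from mitochondria, had 392 with DOX and 1913 without (-2.29). Of 16 p53 circuit genes 3 were higher and 1 lower (median 0.49). The higher genes were Ddit4 (3.32), which also counts in other lists, Trp53inp1 and Polk. Trp53inp1 had 17142 with DOX and 3145 without (2.45) and Polk 627 with DOX and 188 without (1.74). Mdm2, with 4800 with DOX and 2720 without (0.82), was within 2-fold. The median of this list over all 21 analysed genes was 0.39, and -0.01 with the mean of each gene's probes.

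Of 20 genes in the list of PI3K-AKT regulators and FOXO factors 6 were higher and none lower (median 0.65), against 12.3% higher in the background. Besides Pik3ip1 and Ddit4 these were Pik3r1, the regulatory subunit p85 alpha, with 4626 with DOX and 843 without (2.46), Pik3cg, a catalytic subunit that drives the pathway (1.96), Foxo1, with 1140 with DOX and 351 without (1.70), and Inpp5d, the phosphatase SHIP1 (1.35). Among chromatin repressors Hdac7 had 2476 with DOX and 524 without (2.24), Arid4a stood at 1.85, Hdac5 at 1.48 and Kdm5a at 1.37, while Hdac4 (-1.06) and Mbd3 (-1.05) were lower. In the polycomb and silencing list Ezh2, the H3K27 methyltransferase, had 19065 with DOX and 5751 without (1.73, next probe 0.74), and Pcgf6 463 with DOX and 3006 without (-2.70). Dnmt3b, a de novo DNA methyltransferase, had 597 with DOX and 2348 without (-1.98).

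Cytokine and inflammatory signalling genes were higher as groups. Of 18 cytokine receptor, JAK-STAT and SOCS genes detected on both arrays 8 were higher and none lower (median 0.88). Jak1 had 2181 with DOX and 649 without (1.75), Stat3 2672 with DOX and 1095 without (1.29), and Il17ra stood at 1.66. Socs1, a feedback inhibitor, stood at 1.42, and Socs3 was detected with DOX only and at least 3.23-fold higher. Of 16 NF-kB genes 7 were higher and 1 lower (median 0.92). The inhibitors stood high among them, Nfkbia with 4901 with DOX and 766 without (2.68, next probe 2.19), Tnfaip3 with 1520 with DOX and 188 without (3.02) and Nfkbie with 786 with DOX and 206 without (1.94). Nfkbid was lower at -1.30. Of 14 interferon genes 6 were higher and 1 lower (median 0.85). Irf1 had 8526 with DOX and 1859 without (2.20), Ifi27 6533 with DOX and 1473 without (2.15), and the interferon-induced GTPases Ifi47 and Igtp stood at 1.75 and 1.64. Bst2, or tetherin, was the exception at -1.87, and another 25 interferon genes on the array were not detected.

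Immediate early and related genes were few but moved strongly. Of 7 detected on both arrays 5 were higher and none lower (median 1.85). Egr1, an early growth response factor, had 2245 with DOX and 243 without (3.21), and the MAP kinase phosphatases Dusp1 1101 with DOX and 155 without (2.83) and Dusp6 704 with DOX and 179 without (1.98). Dusp2, with 1091 with DOX and 1269 without, was within 2-fold. Of 13 glucocorticoid response genes 4 were higher and 1 lower. Besides Sgk1, with 2657 with DOX and 506 without (2.39), the higher genes were Ddit4 (3.32), Dusp1 (2.83) and Cxcr4 (1.40). Ddit4, Dusp1 and Cxcr4 also count in other lists. Fkbp4, a cochaperone of the receptor, was lower, with 4320 with DOX and 11600 without (-1.43). In the TGF-beta list 6 of 14 were higher and 1 lower (median 0.74). Tgfbr2, the ligand-binding receptor, had 2035 with DOX and 400 without (2.35), Tgfbr3 1372 with DOX and 377 without (1.86), and Tgif1, a repressor of SMAD targets, 499 with DOX and 1134 without (-1.18).

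Many T-lineage genes were higher. Of 26 genes of the CD3 complex and proximal receptor signalling detected on both arrays 17 were at least 2-fold higher and 1 lower (median 1.48), against 12.3% higher in the background. Adaptors, a phosphatase, a RAS activator and a kinase had the highest ratios among them. Sla, an adaptor that turns over the receptor, had 45134 with DOX and 6315 without (2.84), Sit1, an inhibitory adaptor, 3908 with DOX and 554 without (2.82), and Ptprc, the phosphatase CD45, 2126 with DOX and 314 without (2.76). Rasgrp1, which activates RAS downstream of the receptor, had 30653 with DOX and 5212 without (2.56), and Prkcq, protein kinase C theta, 1619 with DOX and 332 without (2.29). Both members of the SLA family were in this range, with Sla2 at 2.47. The CD3 chains moved less, Cd3e at 1.19, Cd3d at 0.89 and Cd3g at 0.52, with Cd247, the zeta chain, at 2561 with DOX and 844 without (1.60, next probe 0.93). The single member below -1 was Ubash3a, a phosphatase that damps the receptor, at -1.31.

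Of 16 T-cell surface genes detected on both arrays 10 were higher and none lower (median 1.26), and another 10 were detected with DOX only. Cd27, a costimulatory receptor, had 32174 with DOX and 4529 without (2.83, next probe 2.92), Cd28 4826 with DOX and 1259 without (1.94), Cd4 1498 with DOX and 589 without (1.35) and Cd37 553 with DOX and 138 without (2.00). Cd8b1 stood at 0.14. Thy1 had 52119 with DOX and 21948 without (1.25), and its second probe stood at -0.17. Among those read with DOX only, Slamf1 was at least 10.7-fold, Cd69 at least 8.05-fold and Cd2 at least 5.64-fold higher, and Cd8a only at least 1.31-fold. Of 22 thymocyte transcription factors and RAG genes 14 were higher and none lower (median 1.53). Tox, needed for CD4 lineage development, had 1215 with DOX and 141 without (3.11), Sox4 6375 with DOX and 1253 without (2.35), Bcl11b, which fixes T-lineage commitment, 29582 with DOX and 6912 without (2.10, next probe 2.07), Gata3 6315 with DOX and 1511 without (2.06) and Ets2 58415 with DOX and 14267 without (2.03). Rag1 of the antigen receptor recombinase stood at 1.55, and Rag2 was detected with DOX only and at least 2.02-fold higher. Lef1 (-0.25), Tcf12 (-0.23) and Foxp3 (-0.12) were the members below 0.

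Of 19 homing and adhesion genes detected on both arrays 8 were higher and none lower (median 0.93), and 12 more were detected with DOX only. Coro1a, an actin regulator needed for T-cell egress, had 27213 with DOX and 6452 without (2.08, next probe 2.05), Cxcr4, a chemokine receptor, 13703 with DOX and 5182 without (1.40), and Rac2 3521 with DOX and 1378 without (1.35). Esyt1 stood at 1.52 by its brightest probe and at 0.12 by the next. Itgb7, a gut-homing integrin chain, was at least 10.5-fold higher and Itgal, the alpha chain of LFA-1, at least 4.40-fold. Both GIMAP GTPases detected on both arrays were higher, Gimap1 with 1709 with DOX and 201 without (3.09) and Gimap9 with 1490 with DOX and 459 without (1.70). Counts in these T-lineage groups depend on detection, since 10, 4, 12 and 3 members of the surface, thymocyte, homing and GIMAP lists were read on the DOX array only.

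Targets of the vector's microRNAs were also followed through MYC loss. Btg1, Hbp1, Kmt5b, Bcl2l11 and Sin3b, for which the study is known as targets of the cluster, were all above 0, and 3 of the 5 were at least 2-fold higher. Btg1 (3.63) and Hbp1 (2.61) were described above. Kmt5b, a histone H4 methyltransferase also called Suv420h1, had 1002 with DOX and 447 without (1.16, next probe 0.88), Bcl2l11 stood at 0.38, and Sin3b, a corepressor scaffold, had 811 with DOX and 640 without (0.34). The ratios of the control cells for these genes, in the order Btg1, Hbp1, Kmt5b, Bcl2l11 and Sin3b, were 4.13, 4.43, 2.09, 1.98 and 1.27. The study may have chosen these targets on these samples, so their direction is not independent evidence, and the difference between the lines was not tested. Of 21 targets reported in other work and detected on both arrays 9 were higher and none lower (median 0.69), against 12.3% higher in the background. Tnfaip3, Tgfbr2, Irf1, E2f2 and Nfkbie, given above, led them together with Rora, which had 449 with DOX and 132 without (1.76). Ccnd1, also a reported target, was lower as given above. Over all 23 analysed targets of this kind 10 were higher in the miR-17-92 cells and 12 in the control cells. The median was 0.69 in the miR-17-92 cells and 1.02 in the control cells, and this difference was not tested either.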

How the data were processed

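Total RNA of 4 cultures was read as biotin-labelled cRNA on Illumina mouse bead arrays. The deposited table holds, per the file headers, an average intensity per probe that was not normalised, and a detection p-value per probe; GenomeStudio is named in the submitters' processing notes. A second deposited table of the authors' processed intensity values served as an alternative. Samples were grouped by their labels.

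Intensities were background-corrected by normexp (limma 3.58.1, R 4.3.3; offset 16), put on the log2 scale and quantile normalised over 4 arrays. Of 45281 probes 34885 had 1 gene name, 18 several and 10378 none; 34807 were updated to the current symbol. A gene is its brightest probe with a detection p-value of at most 0.01 on either miR-17-92 array. A fold against a probe not above background is a lower bound, set against that probe's own signal or the lowest signal among detected probes of its array (73.3 with DOX, 89.7 without), whichever is higher. No test was possible with 1 array a group, and the number of arrays limits the precision. Changed means at least 2-fold.

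Named were the 16 highest and 16 lowest genes detected on both arrays, the 12 highest and 12 lowest bounds, all of the MYC network and study targets, and up to 6 of each list by size of ratio; others complete a count or a complex or, such as the mitotic kinases, CD3 chains and Rag1, were chosen after their values were seen. Clone and predicted gene names (Gm, Rik, LOC and accession-like) were passed over for the 16 highest and lowest genes and for the bounds. Members and lists were chosen with earlier results of these data known. Tables and figures used Python 3.11.15, pandas 2.3.3, numpy 2.4.6, scipy 1.17.1 and matplotlib 3.10.9; the ratio and list steps were tested on simulated data.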

Additional observations from a re-analysis of the deposited data

Results flagged for a closer look

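Some results pointed one way in the miR-17-92 cells and the other way in the control cells, and with 1 array a group none of these differences was tested. The glycolysis list had a median log2 ratio of 1.03 in the miR-17-92 cells and -0.36 in the control cells. Within it Pfkl stood at 1.24 in the miR-17-92 cells and -0.76 in the control cells, Pgk1 at 1.18 and -0.48, and Aldoa at 1.18 and -0.85. The list of mitotic kinases, kinetochore and spindle genes had a median of 0.51 in the miR-17-92 cells and -0.34 in the control cells. Gins3, a subunit of the replicative helicase, stood at 1.07 in the miR-17-92 cells and -0.52 in the control cells. Other lists also had medians of opposite sign in the miR-17-92 and control cells. Among them were the hypoxia-response genes (0.73 and -0.24), the replication polymerases and fork factors (0.15 and -1.25) and the histone genes (0.16 and -1.43).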

How the results depend on the processing

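No paired analysis was possible because the comparison within the miR-17-92 cells holds 1 array with DOX and 1 without. The 1265 genes at least 2-fold higher became 755 without background correction and 662 with the authors' processed values, and the cause was not tested. The 1105 genes lower became 739 without background correction and 939 with the authors' values. Median scaling gave 1740 higher and 899 lower. All these counts include genes detected on 1 array only. No called gene changed sign under median scaling or the authors' values. Without background correction, with the 2 arrays normalised alone or with an offset of 50, signs could not change. Quantile normalisation sets them by the order of probes on each array, which these settings keep, so they are no check of direction. With the mean of each gene's probes the p53 circuit median was -0.0102 (0.39 by the brightest probe), Actb -0.0095 (1.09) and Atg4d 0.44 (-1.02), since probes of different ratio are averaged. List medians near 0, such as those of DNA repair (-0.17 to 0.04), the MCM and GINS genes (-0.23 to 0.10), SLC25 carriers (-0.24 to 0.18) and fatty acid oxidation (-0.11 to 0.23), had no stable sign. Signal over background limits the dim genes: among 178 with a mean log2 level under 6, 51.7% were past 2-fold higher and 14.6% lower. With the first window of every gene, an alternative chosen after seeing the data, the E-box share was 23.7% at -3 and below and 10.7% at 3 and above (24.2% and 7.32% with 1 window a gene), so the low share at the top was not kept, and the FOXO share at 3 and above was 8.93% (12.2%). The glycolysis median ran from 0.49 with the authors' values to 1.03.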

Other observations

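Ubiquitin ligases and deubiquitinases of lymphocytes were higher in 6 of 20 cases detected on both arrays and lower in 1 (median 0.75). Beside Tnfaip3, Peli1 had 3156 with DOX and 1071 without (1.56) and Nedd4l 1636 with DOX and 564 without (1.54), while Nedd4, its close relative, had 138 with DOX and 416 without (-1.59). Of 28 Rab GTPases, which steer vesicle traffic, 3 were higher and 1 lower (median 0.39). Neither share was above the background of 12.3% higher and 12.2% lower. Rab11a, of recycling endosomes, had 776 with DOX and 299 without (1.38), and Rab33a 103 with DOX and 556 without (-2.43). Of 25 SLC25 carriers of the inner mitochondrial membrane 7 were lower and 1 higher (median -0.24). Slc25a33, a pyrimidine nucleotide carrier, had 159 with DOX and 2269 without (-3.83), and Slc25a15, an ornithine carrier, 251 with DOX and 1521 without (-2.60).

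Genes often used as normalizers were not steady. Of 16 detected on both arrays Rplp0, Gusb, Rpl13a and Tfrc were lower, and Actb, with 61290 with DOX and 28703 without (1.09 by its brightest probe, -0.0095 by the mean of its probes), and Pgk1 were higher. Gapdh stood at 0.94.

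Grasp, a scaffold of membrane receptors, was past 2-fold in opposite directions in both lines and detected on all 4 arrays. It had 921 with DOX and 2887 without in the miR-17-92 cells (-1.65), and its ratio in the control cells was 1.38. The difference was not tested.

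Probes with no gene name were not used in the comparison above. Of 2204 detected on either array 382 were at least 2-fold higher and 312 lower, with a median log2 ratio of 0.03.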
